A study of Etheostoma caeruleum with 31 samples.

Results

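The 253 probes described here had their lowest testis signal in the breeding season of the rainbow darter (Etheostoma caeruleum), in spawning and pre-spawning males, and a higher signal in every other month sampled. They are called the low-spring probes. They were picked out of the 8621 tested probes that carry the array's own GT names. The choice used the mean log2 signal at 5 stages of the annual reproductive cycle. All tested probes number 8638, and those without a GT name could not be chosen. The lowest of the post-spawning, recrudescence and developing means had to lie at least 0.7 above the higher of the spawning and pre-spawning means, a difference called the gap below. The post-spawning mean also had to exceed the spawning mean by at least 1. Further limits kept out probes with a post-spawning peak of 3 or more over recrudescence and developing, a dip of 1 or more in recrudescence, or a developing peak of 1 or more. Every value is the log2 signal relative to the 75th percentile of its array. The rule used the means of all 31 arrays, so differences between stages describe how the probes were chosen and carry no test. No gene name is given for any probe, since the files list identifiers alone.

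Adult males were caught by electrofishing at a clean area of the Grand River, Ontario. Testis RNA was measured on 1-colour arrays at spawning (May 2011, 7 arrays), post-spawning (August 2011, 6 arrays), recrudescence (October 2011, 5 arrays), developing (January 2012, 6 arrays) and pre-spawning (March 2012, 7 arrays). The labels call the arrays of a stage biological replicates and do not say whether an array holds RNA of a single fish. Each stage is a single collection of wild fish, so reproductive state and season cannot be told apart. The tissue label could not be checked against testis markers without gene names. In these bulk samples a lower signal can mean fewer cells of a type or less RNA per cell, and the array does not separate them.

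The testis of seasonally breeding fish is rebuilt each year. Germ cells develop in synchronous cysts enclosed by Sertoli cells, the somatic cells that nourish them, while Leydig cells between the lobules make androgens. Before and during breeding the lobules fill with mature sperm, after breeding leftover sperm is cleared and the tissue shrinks, and in recrudescence spermatogonia begin to multiply again.

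The 75th percentile of spot intensity ranged from 2734 to 5093, and between 78.0% and 95.8% of all probes were well above background on an array. From spawning to pre-spawning this share averaged 87.7 ± 5.3%, 90.5 ± 2.9%, 89.0 ± 1.9%, 89.9 ± 3.1% and 84.5 ± 2.8% (SD), lowest in the stages where the low-spring probes were low, and its part in the results was not tested. The arrays lie on 4 slides, each scanned once, and recrudescence has no array on slide 4. Across all tested probes the median change from spawning to post-spawning was 0.30 with scaling to the 75th percentile and 0.13 with arrays centred on the median.

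The low-spring probes stood low on all 14 breeding-season arrays as a group. Their median log2 signal averaged -5.04 ± 0.23 (SD, n = 7) in spawning testis, with the lowest array at -5.21, the middle one at -5.14 and the highest at -4.56. In pre-spawning testis it averaged -5.00 ± 0.13 (n = 7), from -5.11 through a median of -5.09 to -4.81. These stages overlapped. The median of all tested probes was -2.29 ± 0.05 in spawning and -2.31 ± 0.04 in pre-spawning testis. The post-spawning median was -2.09 ± 0.27 (n = 6), from -2.53 through -2.08 to -1.69, where that of all tested probes was -2.06 ± 0.05. The recrudescence arrays stood at -3.96, -4.12, -3.86, -3.87 and -3.85 (mean -3.93 ± 0.12, n = 5). The developing arrays ran from -3.78 through -3.60 to -3.38 (mean -3.61 ± 0.15, n = 6). No post-spawning, recrudescence or developing array fell within the range of the spawning and pre-spawning arrays, as the rule itself requires of the means.

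The label of low in spring describes the lowest stages, which the rule fixes. Of the 253 probes, 240 (94.9%) had their highest stage mean in post-spawning, 11 had it in developing and 2 in recrudescence. Among the 8638 tested probes these numbers were 4014, 1435 and 777, and the required rise of 1 after spawning favours a post-spawning peak. Spawning held the lowest mean of 140 probes and pre-spawning that of 113. From spawning to post-spawning the probes rose by a median of 2.76 on the log2 scale, or 6.79-fold, against 0.30 for all tested probes, and the middle 50% of them rose by 2.00 to 3.48. The smallest rise was 1.01 and the largest 5.65. With arrays centred on the median the median rise was 2.59.

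After post-spawning the median signal fell into recrudescence, was slightly higher in developing testis and was back near the spawning level in March. From post-spawning to recrudescence the median difference was 1.71. Recrudescence stayed a median of 1.03 above spawning (2.05-fold), and developing a median of 1.36 above it (2.56-fold), where all tested probes had medians of 0.00 and 0.12. Relative to pre-spawning the medians were 1.00 for recrudescence, 1.32 for developing and 2.76 for post-spawning. Developing exceeded recrudescence in 212 of the 253 probes and was below it in 41, a count not taken over all tested probes. Over all 253 the median of developing minus recrudescence was 0.29, against 0.16 for all tested probes.

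Counts of probes past limma's test give the size of these differences relative to the spread within stages. At an adjusted p under 0.05, post-spawning testis was above spawning testis for 253 of 253, where 46.5% of all tested probes were called that way. Likewise 253 were higher in post-spawning than in pre-spawning testis, against 46.3% of all. In recrudescence 215 were higher than in spawning testis, against 14.8% of all, and 215 were higher than in pre-spawning testis, against 16.7%. In developing testis 247 were higher than in spawning, against 34.7% of all, and 244 were higher than in pre-spawning, against 33.1%. The rule selected on all these stage means, so the counts are printed as a description only. The recrudescence count against spawning was 142 without slide 3 and 72 with scaling to spike-in probes. Slide 3 held 2 of the 5 recrudescence arrays and 2 of the 7 spawning arrays, so that fit rests on fewer arrays. Calls among all tested probes also change with the setting, so these counts are not compared with the shares above.

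The 3 high stages were also compared with each other. Post-spawning exceeded recrudescence for 228 of them, where 47.4% of all tested probes were called in that direction, and was below it for 1 (23.4% of all). Post-spawning exceeded developing for 214 (36.5% of all) and was below it for 2 (26.7% of all). Developing was above recrudescence for 53 (27.0% of all) and below it for 1 (15.7% of all), while 199 did not pass. In terms of successive calls, 173 of the 253 (68.4%) rose after spawning, fell into recrudescence, passed no threshold into developing and fell into pre-spawning, a course of 9.76% of all tested probes. Another 49 (19.4%) also rose from recrudescence to developing, against 13.4% of all tested probes. A further 17 (6.72%, against 1.41% of all) passed no threshold after the first rise until the fall into pre-spawning. Successive steps share the arrays of a stage. The rule sets the rise after spawning and the gap, and it limits the peaks and the dip between the high stages. These counts are therefore a description of the choice, and nothing is read from them.

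The share of the summer rise that was kept varied widely between probes. In recrudescence the log2 distance from spawning was a median of 41.4% of that in post-spawning, with quartiles of 33.5% and 52.0%. In developing it was 51.3%, with quartiles of 40.1% and 65.7%. It was under 50% for 184 probes in recrudescence and for 118 in developing, and 100% or more for 2 and 13. The rule bounds these shares from below through its gap, so a probe with a small rise must keep a larger share. Its limit on the post-spawning peak also bounds the larger of the 2 shares. The spread of the shares is therefore partly set by the choice.

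Among the 132 low-spring probes well above background on all 31 arrays, GT_EA516_an_as_sp_4984 had the largest rise from spawning to post-spawning. Its spawning arrays ranged from -5.56 through a median of -4.83 to -3.46, and its post-spawning arrays from -0.78 through 0.12 to 0.94. Recrudescence stood at -1.96, -3.27, -1.83, -2.77 and -1.43. Developing ranged from -3.83 through -3.42 to -1.76, and pre-spawning from -4.75 through -4.41 to -3.42. The post-spawning arrays lay above all others and the recrudescence arrays above every breeding-season array, while developing overlapped with both breeding-season stages. From spawning to pre-spawning the stage means were -4.62 ± 0.77 (SD, n = 7), 0.14 ± 0.56 (n = 6), -2.25 ± 0.75 (n = 5), -3.09 ± 0.85 (n = 6) and -4.29 ± 0.49 (n = 7), a rise of 4.75 or 27.0-fold after spawning.

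Probe GT_EA516_an_s_sp_2760 rose by 4.53, or 23.1-fold. Its spawning arrays ranged from -2.92 through -2.18 to -1.17, and its post-spawning arrays from 1.75 through 2.24 to 3.76. Recrudescence stood at 0.69, -1.05, 0.05, -0.25 and 0.70. Developing ranged from -0.92 through -0.62 to 0.35, and pre-spawning from -1.92 through -1.78 to -1.15. No recrudescence or developing array of this probe reached down to a breeding-season array, although the gap between the lowest of the former and the highest of the latter was small (-1.05 against -1.15). The means were -2.11 ± 0.57, 2.42 ± 0.78, 0.03 ± 0.73, -0.55 ± 0.47 and -1.64 ± 0.31 in the order from spawning to pre-spawning.

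Probes GT_EA516_an_s_sp_1564 and GT_EA516_an_s_xh_3271 had the largest falls from developing to pre-spawning among the other probes of this kind. For GT_EA516_an_s_sp_1564 the developing arrays ranged from -1.76 through -1.34 to -0.92, and the pre-spawning arrays from -4.30 through -3.42 to -3.11, without overlap. The spawning arrays ran from -5.31 through -4.35 to -2.29 and the post-spawning arrays from -2.89 through -1.87 to -0.68, with recrudescence at -2.82, -3.67, -2.40, -2.17 and -2.13. Spawning replicate 2, at -2.29, lay within the post-spawning and recrudescence ranges. The means were -4.08 ± 0.92, -1.82 ± 0.77, -2.64 ± 0.64, -1.33 ± 0.36 and -3.52 ± 0.39. The highest mean was that of developing testis, 0.49 above post-spawning, and the arrays of these stages overlapped. From developing to pre-spawning this probe fell by 2.19 (4.58-fold).

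Probe GT_EA516_an_s_xh_3271 followed nearly the same course. Its developing arrays ranged from -1.88 through -1.52 to -1.15 and its pre-spawning arrays from -4.32 through -3.51 to -3.32. Spawning ran from -5.18 through -3.97 to -2.49 and post-spawning from -2.99 through -2.01 to -0.87, and recrudescence stood at -3.01, -3.96, -2.62, -2.39 and -2.30. The fall from developing to pre-spawning was 2.10 (4.28-fold), between means of -1.52 ± 0.32 and -3.62 ± 0.34. Over the 31 arrays the deviations of these 2 probes from their stage means correlated at 0.976. Whether they target the same transcript is not known here.

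The 13 probes that did not peak in post-spawning exceeded it by 0.08 to 0.96 in their highest stage, and 2 of them passed the test between post-spawning and developing. The 2 that peaked in recrudescence had the widest gaps of all 253, at 2.35 and 2.40. One stood at -4.82 ± 0.93, -2.48 ± 0.60, -1.51 ± 0.76, -2.02 ± 0.59 and -6.07 ± 0.46 from spawning to pre-spawning, on 28 arrays well above background. The other stood at -6.48 ± 1.15, -4.08 ± 0.61, -3.33 ± 0.66, -3.77 ± 0.64 and -7.64 ± 1.29, on 24 such arrays. Both were lower in pre-spawning than in spawning testis on the means, and for the first this difference (-1.25) passed the test. Only 12 of the 253 probes had a gap of 1.5 or more, 85 had one of 1 or more, and 83 had one under 0.8.

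The rule requires these probes to be low in both spawning and pre-spawning testis, which were collected in different years. The median difference of pre-spawning from spawning was 0.04, with quartiles of -0.10 and 0.22, and 140 probes were higher and 113 lower in pre-spawning. Single probes ranged from -1.25 to 0.88. Limma called 3 of the 253, of which 1 was higher and 2 lower in pre-spawning. Among all tested probes 9.46% differed, with 4.39% higher and 5.07% lower. The rule used the higher of these 2 means and the spawning mean, so nothing is read from the small median difference or from the count. It was 1 without pre-spawning replicate 7 or without spawning replicate 4, 6 or 7, and 6 without pre-spawning replicate 4.

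Many low-spring probes were dim in the breeding season, which limits how their fold changes can be read. Averaged over the stages their level had a median of -3.98 (quartiles -5.37 and -2.35) against -2.24 for all tested probes, and 191 (75.5%) lay below that value. All 7 spawning arrays were well above background for 136 probes, and the same number held for the 7 pre-spawning arrays. The 6 post-spawning arrays were well above background for 252 probes, the 5 recrudescence arrays for 227 and the 6 developing arrays for 223. On no pre-spawning array were 20 probes well above background, and on no spawning array 4. For 19 of the 20, measured on all post-spawning arrays, the post-spawning level was at least 9.54-fold higher than in pre-spawning testis in the median, with bounds from at least 2.98-fold to at least 29.3-fold higher. For 3 of the 4, post-spawning was at least 24.5-fold higher than spawning in the median, with bounds from at least 5.70-fold to at least 33.4-fold higher. The dim level in these bounds is the higher of the probe's own signal and the lowest signal of any probe well above background on that array. The rule requires these probes to be low in both breeding-season stages. Their detection on the post-spawning arrays alone met the filter of at least 5 arrays. The direction of the bounds is set by that choice, and nothing is read from their size.

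The probes were also divided by detection. Being well above background on all arrays includes the breeding-season arrays, so a probe with a larger fall is more easily counted among the dimmer ones, and the sizes of the differences below are partly set by this division. The 132 that were well above background on all arrays had a median rise of 2.18 from spawning to post-spawning and stayed 0.96 and 1.23 above spawning in recrudescence and developing. The other 121 had a median rise of 3.32 and a median recrudescence difference of 1.21. Their spread within stages was also larger, with a median residual SD of 0.58 against 0.29. Each post-spawning array lay above each spawning array for 236 of the 253 probes (35.0% of all tested probes) and above each pre-spawning array for 239 (33.2%). For recrudescence these counts were 152 (7.08% of all) and 132 (7.25%), and for developing 164 (17.5%) and 162 (14.9%). Every post-spawning, recrudescence and developing array lay above every breeding-season array for 88 of the 253 probes, where 2.05% of all tested probes did so, and 67 of the 88 belonged to the 132 brighter probes. The choice of the probes fixes this direction, and nothing is read from these counts.

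The spread between arrays of a stage was not part of the rule. From spawning to pre-spawning the median SD of a low-spring probe was 0.42 (n = 7), 0.36 (n = 6), 0.32 (n = 5), 0.34 (n = 6) and 0.39 (n = 7). For all tested probes the medians ran from 0.26 to 0.29. Among the low-spring probes the larger residual SD lay in the dimmer ones. Its median was 0.58 for the 121 not well above background on all arrays, and 0.29 for the other 132. For all tested probes, which include dim ones, the median was 0.30. The tested probes well above background on all arrays were not taken separately, so the brighter low-spring probes have no like set beside them. Repeated spots of a probe on 1 array differed far less, with a median SD of 0.12 over the 137 low-spring probes with 2 unflagged spots and of 0.08 over all 5982 such probes.

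Between arrays of the same stage the low-spring probes were weakly correlated on average. The mean pairwise correlation of their deviations from the stage means was 0.135 over 251 probes with complete values and 31 arrays, against 0.023 for all 8561 such tested probes. It was 0.145 among the 131 of them that were well above background on every array, against 0.017 for the 6645 tested probes of that kind, and 0.091 among the 3730 other probes called as rising after spawning. Among the 120 low-spring probes not well above background on every array it was 0.176, against 0.081 for the 1916 such tested probes. These correlations are a description over probes that share arrays, scaling and background. Of the 251 probes, 47 had a low-spring partner with a correlation of at least 0.9. No like count was made among other tested probes, and whether such partners measure the same transcript was not tested.

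Some arrays stood at the edge of their stage for many of these probes. Post-spawning replicate 2 was the lowest array of its stage for 152 of the 253 probes (60.1%), against 23.5% of all tested probes, and replicate 3 was the highest for 134 (53.0%), against 22.7%. Their median deviations from the stage mean were -0.39 and 0.34, while the other 3760 probes called higher in post-spawning testis deviated by -0.11 and 0.07. For the 132 low-spring probes well above background on all arrays the median deviations were smaller, at -0.25 and 0.18. The other 3760 probes were not matched for signal level or size of rise. In spawning, replicate 2 was highest for 78 probes (30.8% against 16.7%), with a median deviation of 0.25, and it was the highest spawning array of all 4 probes named above. In developing, replicate 4 was highest for 104 probes (41.1% against 29.8%), and in pre-spawning replicate 6 for 91 (36.0% against 26.5%). These are single arrays and their deviations were not tested. Without spawning replicate 2 the median rise after spawning was 2.83, and without post-spawning replicate 3 it was 2.68.

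No slide effect was called among these probes. With stage held, limma's moderated F test called 0 of the 253 as different between slides, as it did for 0.0% of all tested probes, and 9 had an unadjusted p under 0.05 (3.56%, against 4.93% of all). Within slides 1 to 4 the median rise from spawning to post-spawning was 2.78, 2.49, 2.55 and 2.84, each resting on 1 to 3 arrays a stage. The median fall from developing to pre-spawning was 1.14, 1.28, 1.58 and 1.27. Recrudescence exceeded spawning by 1.19, 0.88 and 1.23 on slides 1 to 3. The rule used the stage means of these same arrays, so the direction of these differences was largely set by the choice. Nothing is read from their likeness between slides. Pre-spawning minus spawning was 0.23, -0.12, 0.07 and -0.07, without a common sign.

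The field "an" occurred in 168 of the 253 names (66.4%) against 72.1% of the 8621 tested GT probes, the field "as" in 80 (31.6% against 30.8%) and the field "xh" in 96 (37.9% against 32.9%). Their meaning is not stated in the labels or file headers. A single spot on the array was more frequent, at 116 probes (45.8% against 30.8%). None of these shares was tested.

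The boundaries of the set are soft. With all spots kept, the probe just inside the gap threshold had a gap of 0.701 and the one just outside 0.698, and 1831 probes met every condition but the gap. Another 28 probes failed only because their post-spawning peak stood 3 or more above recrudescence and developing, with the nearest at 3.09 and the last probe inside at 2.92. Their stage medians were -6.54, -1.36, -5.35, -4.79 and -7.02 from spawning to pre-spawning. Those of the low-spring probes were -5.03, -2.07, -3.89, -3.70 and -5.06, and the limit itself sets the sizes of the peaks apart. A further 20 failed only through a dip of 1 or more in recrudescence, with the nearest at 1.01 and the last inside at 0.96, and 7 failed only the rise of 1 after spawning, with the nearest at 0.995 and the last inside at 1.01. No probe failed the limit on the developing peak alone. The same rule with all signs turned, for probes high in both breeding-season stages, found 46 probes.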

How the data were processed

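The arrays were extracted with Agilent Feature Extraction 10.7.1.1, per the file headers. The deposited scanner intensity per spot is on a linear scale, corrected for background by the extraction software, with no scaling between arrays. The authors' deposited log2 table (15171 spots) served only as an alternative, with a normalisation that no label or header states. Slide numbers come from the array barcodes in the file headers.

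The log2 intensity was taken relative to each array's 75th percentile, 426 outlier-flagged spots were left out, and spots of a probe were averaged. The rule was applied with all spots kept; without the flagged spots 252 of the 253 probes remained. Probes were taken as well above background where the scanner flag held for a share of at least 0.5 of their spots. Of 9041 probes, 8638 were so on at least 5 arrays and were tested in R 4.3.3 with the limma package, version 3.58.1 (lmFit, then eBayes, on 31 arrays at 5 stages), with Benjamini-Hochberg adjustment over all of them for each of 10 contrasts. The fit was tested on simulated data. No spot was saturated, and the number of arrays limits the precision.

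The 4 named probes are, among members well above background on all arrays, the 2 with the largest rise from spawning to post-spawning and then the 2 with the largest fall from developing to pre-spawning. Members, rules and lists were chosen with earlier results of these data known. Lists of testis genes gave no result without gene names, and no sequence was used. Alternatives covered scaling, background correction, filters, slide, replicate numbers and leaving out arrays.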

Additional observations from a re-analysis of the deposited data

Results flagged for a closer look

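One of 25 groups of arrays (the median of the low-spring probes and the 4 named probes, each at 5 stages) held an array set apart from the others by more than Dixon's critical value at 95%, and chance sets apart about 1 group in 20. For GT_EA516_an_s_sp_2760, developing replicate 1 stood at 0.35, and the nearest developing array was at -0.55. This gap took up a share of 0.706 of the range of the stage.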

How the results depend on the processing

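The number of probes that met the rule changed with the processing. With normexp background correction, 82 probes met the rule, 78 of them among the 253. This setting started from the median pixel intensities instead of the processed signal and added an offset of 50, and these changes were not taken separately. The number was 216 with arrays centred on the median (212 shared), 179 with quantile normalisation (173), 182 with the authors' deposited values (175), 276 with spike-in scaling (198) and 225 to 283 when any 1 array was left out. Under normexp the median gap of the 253 was 0.55 and their median differences were 1.92 (post-spawning minus spawning) and 0.86 (developing minus pre-spawning). The first of these was 2.47 with quantile normalisation and 2.48 with the authors' values, and the second 1.71 with spike-in scaling, where pre-spawning minus spawning was -0.23. Restricting the fit to probes well above background on all arrays left 132 of the 253, with a median rise after spawning of 2.18. Of these, 132 differed from spawning and 132 from pre-spawning in post-spawning testis, 125 and 123 in recrudescence and 131 and 129 in developing, while 121 differed between post-spawning and recrudescence and 111 between post-spawning and developing. The rule selected on these stage means, and the shares of all probes called under this filter are not given here. Nothing is therefore read from the counts under this filter. With spike-in scaling 72 differed between recrudescence and spawning and 26 between developing and recrudescence. The corresponding counts without slide 3, which held 2 recrudescence, 2 developing and 2 spawning arrays, were 142 and 22. Calls among all tested probes changed too. Between post-spawning and spawning they numbered 6444 with the main settings and 5093 with spike-in scaling. Whether the changes in these counts are particular to the low-spring probes was not tested. The count of 3 between pre-spawning and spawning became 0 with spike-in scaling, normexp and without slide 2 or 4, 1 with the filter, with slide as a block and with the title's replicate block, 6 with array weights, and 1 to 6 when 1 array was left out. The replicate block, with the number in the title or that in the description, moved no other count by over 1.5 times. By the number in the title and that in the description, same-numbered arrays of different stages had mean correlations of -0.004 and 0.017 between their deviations. For different-numbered arrays the means were 0.001 and -0.003. Of 57 same-numbered pairs, 9 and 12 were over 0.1, and the largest stood at 0.20 and 0.28. The arrays were not treated as paired, and these values cannot settle whether the numbers pair them. The cause of these changes was not tested beyond the constructions named.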
